A study of Homo sapiens with 44 samples.

Results

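Oncostatin M (OSM) was compared with no cytokine in Ccd18-Co, a human colon fibroblast line, by ATAC-seq, which measures open chromatin through the sites that Tn5 transposase can reach. The 4 OSM and the 4 unstimulated libraries are 8 of the 44 libraries of a series in which the same line received one of 10 cytokines or none, and they were taken by their sample titles. All cells were starved of serum for 72 h per the study's methods, and the OSM cultures then received 10 ng/ml OSM in serum-free medium for 24 h. All 8 libraries come from 1 cell line, and no label says that the replicates were separate experiments. The p-values therefore measure only the spread between libraries of this line. For changes in peaks, that spread was taken from all 44 libraries. The deposited matrix gives read coverage, summed over bases, in 407383 peaks of equal width called on hg38, of which 407174 passed the filter on low values and were tested.

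OSM is a cytokine of the IL-6 family. It binds OSMR or LIFR paired with the shared subunit gp130 (gene IL6ST), which activates JAK kinases and STAT transcription factors, STAT3 above all, and also the MAP kinase cascade that feeds AP-1 (FOS and JUN family) factors. STAT3 induces SOCS3, which binds gp130 and JAK and shuts the signal off. In the gut, OSM is made by immune cells of inflamed mucosa and is known as a cytokine that acts on stromal cells.

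With OSM, 6330 peaks were higher (1.55% of those tested) and 5257 were lower (1.29%) after each library was scaled by its composition factor (the trimmed average of its log ratios to a typical library), at an adjusted p under 0.05 by limma with Benjamini-Hochberg adjustment. Under this scaling weak peaks shifted down and strong peaks shifted up in the OSM libraries, so every call was repeated after scaling by library total and after loess offsets against mean accessibility. Under all 3 scalings, 4458 peaks (1.09%) were higher and 2966 (0.728%) were lower, and no peak was called in opposite directions. "Raised" and "lowered" below mean these 7424 peaks unless stated otherwise.

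The sets of sequences below are examples from the named peaks. They were picked because they hold a string that was searched for, so they do not show how common a string is. The first set is the plus strand of hg38 around matches to TTCCNGGAA, the palindrome that STAT3 dimers prefer, with the match in capitals. Of the 12 named raised peaks, 4 hold this string, and 3 of these are shown (the ABRA peak is not). They carry the names IGSF23 (chr19:44587810-44588310), IL7R (chr5:35784303-35784803) and DPY19L1 (chr7:35015354-35015854). Whether the deposited starts count from 0 or from 1 is not stated, so a window could be off by 1 base.
IGSF23, chr19:44587860-44587918: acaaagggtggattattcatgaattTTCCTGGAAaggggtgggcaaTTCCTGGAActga
IL7R, chr5:35784586-35784644: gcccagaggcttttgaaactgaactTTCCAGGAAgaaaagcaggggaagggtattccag
DPY19L1, chr7:35015571-35015629: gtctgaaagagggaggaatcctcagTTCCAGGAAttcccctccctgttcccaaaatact

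The second set shows the AP-1 string TGANTCA in the PDZRN4 peak (chr12:40953008-40953508) and in the IL7R peak, and the RUNX string TGTGGTT in a peak inside an intron of RUNX2 (chr6:45543438-45543938) and, as an inverted pair, in a peak upstream of JAK2 (chr9:4904797-4905297). RUNX strings on the opposite strand read AACCACA.
PDZRN4, chr12:40953228-40953284: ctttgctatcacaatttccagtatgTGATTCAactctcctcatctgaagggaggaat
IL7R, chr5:35784542-35784598: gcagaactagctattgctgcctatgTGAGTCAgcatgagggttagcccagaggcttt
RUNX2 intron, chr6:45543666-45543722: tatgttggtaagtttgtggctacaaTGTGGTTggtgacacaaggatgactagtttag
JAK2 upstream, chr9:4904847-4904903: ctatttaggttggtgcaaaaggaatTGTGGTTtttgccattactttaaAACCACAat

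The peak with the largest change held neither a STAT nor an AP-1 nor a RUNX string of those searched. The same was true of the named raised peak ERCC1 (chr19:45475636-45476136). The promoter peak of SOCS3 (chr17:78359950-78360450), also raised, did hold TTCCTGGAA, a match to TTCCNGGAA. The central 101 bases of the SOCS3 distal peak, the one with the largest change and 4.9 kb from the start, are printed because it held none of these strings.
SOCS3 distal peak, chr17:78355097-78355197: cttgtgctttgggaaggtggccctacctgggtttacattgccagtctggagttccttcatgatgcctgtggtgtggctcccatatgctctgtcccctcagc

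The third set shows the E-box CAGCTG, which basic helix-loop-helix factors bind, in peaks that lost coverage with OSM, those carrying the names PPP1R3C (chr10:91589213-91589713), NCOA3 (chr20:47559120-47559620), XPNPEP1 (chr10:109947501-109948001) and PRELP (chr1:203424227-203424727).
PPP1R3C, chr10:91589676-91589713: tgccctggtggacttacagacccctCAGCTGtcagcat
NCOA3, chr20:47559331-47559386: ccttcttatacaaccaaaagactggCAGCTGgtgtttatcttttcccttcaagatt
XPNPEP1, chr10:109947834-109947889: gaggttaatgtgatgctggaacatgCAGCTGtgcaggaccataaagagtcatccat
PRELP, chr1:203424527-203424582: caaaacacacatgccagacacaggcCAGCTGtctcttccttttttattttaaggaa

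The largest change was near SOCS3. The peaks named here are those of a fixed rule (the 12 raised and 12 lowered peaks with the largest change, with at most 1 per gene name, at least 1 unit of mean coverage and no overlap between groups). All levels are given as coverage per Mb, the bases of coverage in a peak per Mb of coverage over all peaks after the composition factor, and since every peak has the same width they can be compared between peaks. In the SOCS3 distal peak the unstimulated libraries held 1.84, 1.20, 1.75 and 2.41 coverage per Mb, and the OSM libraries held 26.0, 27.2, 19.7 and 21.5. Every OSM library exceeded every unstimulated library, which the rule required, and the gap was larger than the spread within either group. The log2 change, on the scale of log2(coverage per Mb + 0.5) used for all changes here, was 3.40 (SE 0.32, limma adjusted p = 3.71e-18), and it was 3.42 with library totals and 3.45 with loess offsets. In bulk material, a peak open in more cells and a peak more open in each cell cannot be told apart.

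Within 100 kb of the SOCS3 start, 26 of 162 tested peaks were raised and 0 were lowered, with log2 changes from 0.70 to 3.40. The peaks lay on both sides of the gene, and they included 15 of the 48 peaks that carry the SOCS3 name and 10 of the 55 that carry the name of its upstream neighbour PGS1, an enzyme of cardiolipin synthesis. The promoter peak held 19.9, 17.0, 16.5 and 12.6 coverage per Mb without cytokine and 26.7, 34.8, 36.1 and 28.0 with OSM. Its log2 change was 0.91 (SE 0.14, adjusted p = 1.75e-07) and 0.79 with loess offsets (adjusted p = 4.18e-06). The promoter was already open in unstimulated cells, and its log2 change was smaller than that of the distal peak.

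**Figure D1:**
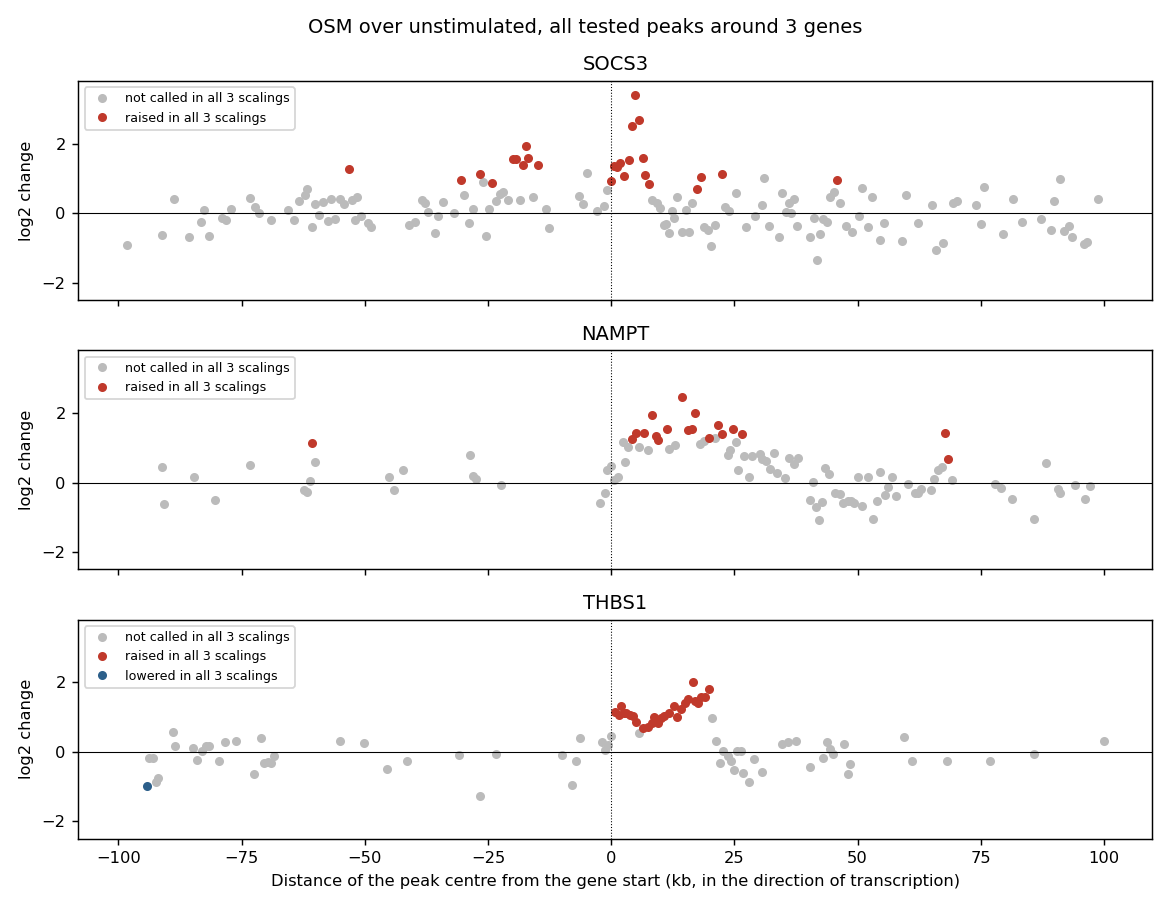
Log2 change of coverage, OSM over unstimulated, for every tested peak within 100 kb of the starts of SOCS3, NAMPT and THBS1, plotted by distance from the start in kb along the direction of transcription; red points are raised and blue points lowered under all 3 scalings. Raised peaks number 26 around SOCS3, on both sides of the start, 19 around NAMPT and 27 around THBS1, mostly downstream of the start.

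At THBS1 and NAMPT the raised peaks ran along the transcribed gene. THBS1 encodes thrombospondin 1, a matrix glycoprotein that can activate latent TGF-β, and 27 of the 132 peaks with its name were raised, more than for any other gene name, and 2 were lowered. All 26 tested peaks whose centre lay inside the gene (chr15:39581079-39599466) had a positive log2 change, and 25 of them were raised, against the 1.09% of all tested peaks. NAMPT, the rate-limiting enzyme of NAD salvage, had 21 of 127 peaks raised and 0 lowered. Inside the gene (chr7:106248298-106285966) all 45 tested peaks had a positive change and 16 were raised. These spans were looked at after the values were seen.

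The strongest NAMPT peak (chr7:106270401-106270901, intron) held 0.533, 0, 0.179 and 0.592 coverage per Mb in unstimulated libraries and 3.59, 4.22, 3.37 and 4.33 with OSM, a log2 change of 2.47 (SE 0.38, adjusted p = 3.11e-07). The strongest THBS1 peak (chr15:39597341-39597841, in an untranslated region) held 18.1 ± 1.7 coverage per Mb with OSM and 4.27 ± 1.2 without (SD, n = 4), a log2 change of 2.00 (SE 0.26, limma adjusted p = 3.99e-10). The NAMPT peak was thus nearly closed before OSM, whereas the THBS1 peak was open and became more so.

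The other named raised peaks lay in introns, between genes or, for 1 of them, in an untranslated region. Deposited names follow a nearest-gene rule that differs in places from the GENCODE annotation used here, so the annotated position is given beside the name. The IGSF23 peak, in an intron of the pseudogene CEACAM22P, held 2.65, 3.45, 1.37 and 1.89 coverage per Mb unstimulated and 16.1, 19.0, 20.5 and 16.8 with OSM (log2 change 2.76, SE 0.27, limma adjusted p = 3.98e-17). It is the peak with 2 copies of the strict STAT3 string shown above.

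The peak named ERCC1 (chr19:45475636-45476136) lay 7.9 kb from the start of FOSB, an AP-1 subunit, and held 4.19, 2.18, 2.78 and 3.06 coverage per Mb unstimulated against 20.2, 23.4, 15.3 and 20.8 with OSM (log2 change 2.54, SE 0.29). The IL7R peak, in an intron of SPEF2 and 72.3 kb from IL7R, the receptor subunit for IL-7 and TSLP, held 0.812, 1.72, 2.18 and 1.04 against 9.49, 10.4, 10.8 and 9.61 (log2 change 2.50, SE 0.34). The groups did not overlap in either peak, which the naming rule required.

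The peak named SUPT3H lay in an intron of RUNX2, a transcription factor of skeletal development, and held 1.18, 0.913, 1.29 and 0.901 coverage per Mb unstimulated against 5.36, 8.33, 10.9 and 8.16 with OSM (log2 change 2.43, SE 0.32). The peak named MIR101-2 lay 80.2 kb upstream of JAK2, a kinase bound to gp130, and held 1.40, 2.25, 2.45 and 1.98 against 9.97, 14.3, 12.2 and 13.1 (log2 change 2.36, SE 0.30). A second peak in this interval, 42.8 kb from the JAK2 start, was also raised, from 1.82 ± 0.73 to 5.92 ± 0.86 coverage per Mb (SD, n = 4; limma adjusted p = 0.000277). The JAK2 promoter itself was at 11.4 ± 1.5 with OSM and 9.83 ± 0.74 without (limma adjusted p = 0.587), and none of the 12 tested peaks inside the gene was raised.

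The remaining 5 of the 12 named raised peaks carried the names PDZRN4 (an intron of CNTN1, a neural adhesion protein), DPY19L1, FHL2 (intergenic; a LIM-domain cofactor), TDO2 (in an untranslated region of GUCY1B1, a subunit of soluble guanylate cyclase) and ABRA (intergenic). Their log2 changes ran from 2.33 to 2.57. Mean coverage rose in the DPY19L1 peak from 2.03 ± 1.2 to 12.1 ± 3.1 coverage per Mb and in the FHL2 peak from 1.64 ± 0.41 to 10.1 ± 1.2 (SD, n = 4). All 24 named peaks kept their direction and an adjusted p under 0.05 in each of 504 refits with other scalings, filters, weights, offsets or 1 library left out. The refits with library totals and with loess offsets could not fail, because the naming rule required those calls.

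**Figure D2:**
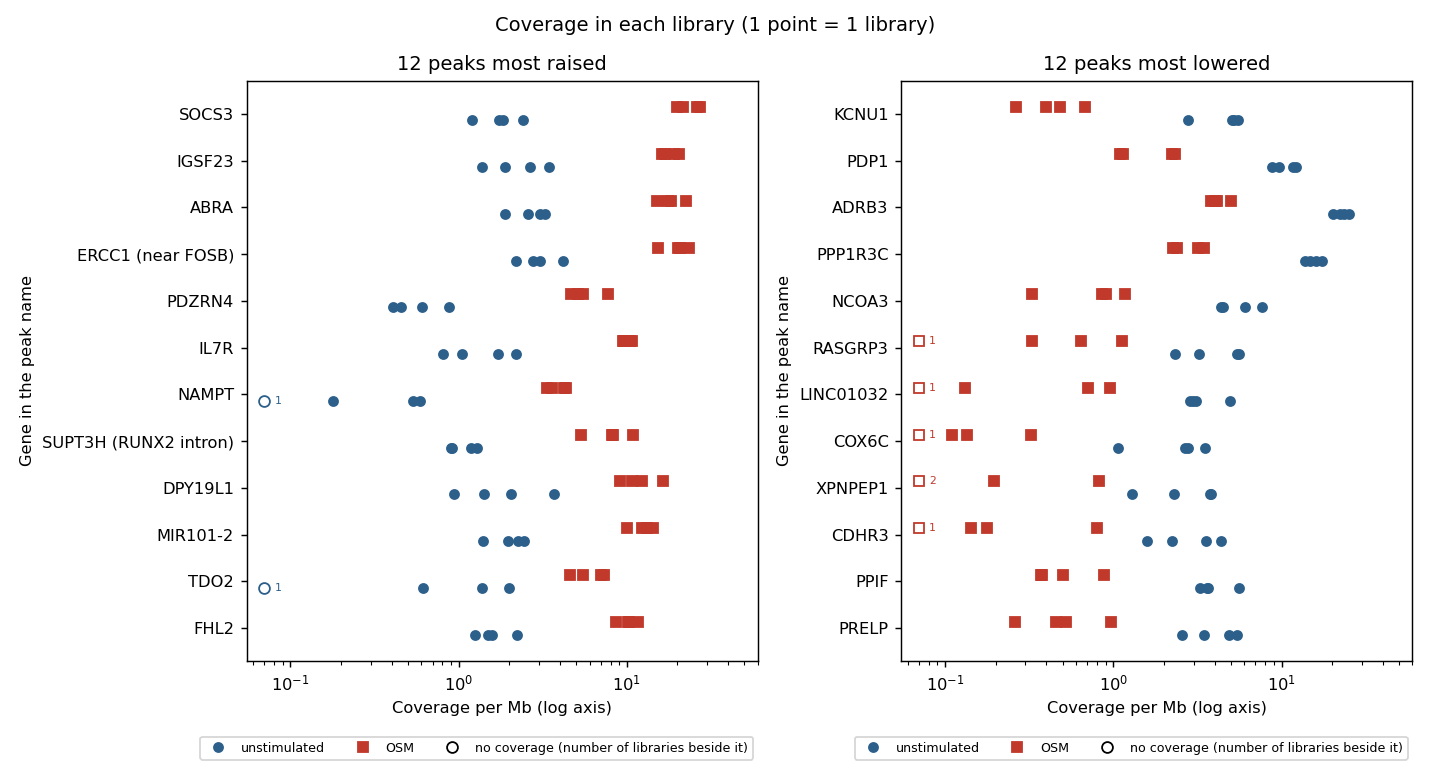
Coverage per Mb in each of the 4 OSM and 4 unstimulated libraries (log axis) for the 12 raised and 12 lowered peaks with the largest change, labelled with the gene in the deposited peak name; open points at the left edge stand for libraries with no coverage. The groups do not overlap in any of these peaks, which the naming rule required, and the SOCS3 peak shows the widest gap, from at most 2.41 to at least 19.7.

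IL-6 signals through the same gp130 subunit. Its 4 libraries are given as coverage only, for the 2 raised peaks with the largest change and with no test. In the SOCS3 distal peak they held 2.35, 1.70, 1.45 and 4.38 coverage per Mb, and in the IGSF23 peak 2.74, 4.39, 4.80 and 9.52. The last value of each is from IL-6 replicate 4, the shallowest of these 4 libraries (149 Mb of coverage, with none in 27.1% of peaks).

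The 12 named lowered peaks changed by -2.41 to -2.12 on the log2 scale, and their names were KCNU1, PDP1, ADRB3, PPP1R3C, NCOA3, RASGRP3, LINC01032, COX6C, XPNPEP1, CDHR3, PPIF and PRELP. The peak near ADRB3, the β3-adrenergic receptor, was the most open of them before OSM, at 20.2, 23.6, 25.2 and 22.2 coverage per Mb, and it held 5.01, 4.04, 4.16 and 3.83 with OSM (log2 change -2.29, SE 0.15, limma adjusted p = 1.45e-32). The PPP1R3C peak held 14.7, 13.8, 17.3 and 15.9 unstimulated and 3.18, 3.44, 2.28 and 2.39 with OSM (log2 change -2.27, SE 0.16, limma adjusted p = 5.34e-29).

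PPP1R3C targets protein phosphatase 1 to glycogen, and 12 of the 66 peaks with its name were lowered and 0 raised, over 49.2 kb. Among gene names, only KCNU1 (a sperm potassium channel; 12 of 96) and ZFP36L1 (an mRNA decay factor; 12 of 309, with 1 raised) had as many lowered peaks, and DEC1 followed with 9 of 96. The background was 0.728% of all tested peaks.

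The PDP1 peak, intergenic and 81.3 kb from this gene of a mitochondrial phosphatase, held 8.72 to 12.2 coverage per Mb unstimulated and 1.09 to 2.33 with OSM. The NCOA3 and PRELP peaks were less open before OSM and held about 1 unit or less with it. The NCOA3 peak, in an intron of this nuclear receptor coactivator, held 7.64, 4.50, 6.03 and 4.37 coverage per Mb unstimulated and 0.900, 0.329, 1.17 and 0.852 with OSM (log2 change -2.24, SE 0.35). The peak 51.3 kb from PRELP, a leucine-rich proteoglycan of connective tissue, held 3.47, 4.84, 5.47 and 2.57 against 0.972, 0.454, 0.526 and 0.262 (log2 change -2.12, SE 0.34). The COX6C peak averaged 0.142 coverage per Mb with OSM and 2.50 without. Its OSM libraries were below the equivalent of 3 reads of 75 bases, and counted from that floor its level was at least 6.09-fold lower.

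The median level of raised peaks went from 4.17 coverage per Mb unstimulated to 9.43 with OSM, at a median of 8.43 kb from a start site, while that of lowered peaks went from 6.43 to 2.80 at a median of 13.9 kb, against 8.71 kb for all tested peaks. The median log2 change was 1.03 in raised and -1.02 in lowered peaks, 2449 raised and 1572 lowered peaks changed by 1 or more, and 56 and 22 by 2 or more. The 4 OSM libraries lay above all 4 unstimulated libraries in 93.1% of raised peaks, against 3.65% of all tested peaks. They lay below in 88.6% of lowered peaks, against 8.06% of all tested peaks. The peaks were called on these same values, so both shares describe the calls and are no separate support for them.

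By the deposited peak class, raised were 1.13% of distal, 1.08% of intronic, 1.15% of exonic and 0.993% of promoter-class peaks. Lowered were 0.870% of distal, 0.735% of intronic, 0.410% of exonic and 0.295% of promoter-class peaks. The promoter share depended on scaling: with the composition factor alone 2.21% of promoter-class peaks were called higher, with library totals 2.35% and with loess offsets 1.14%.

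**Figure D3:**
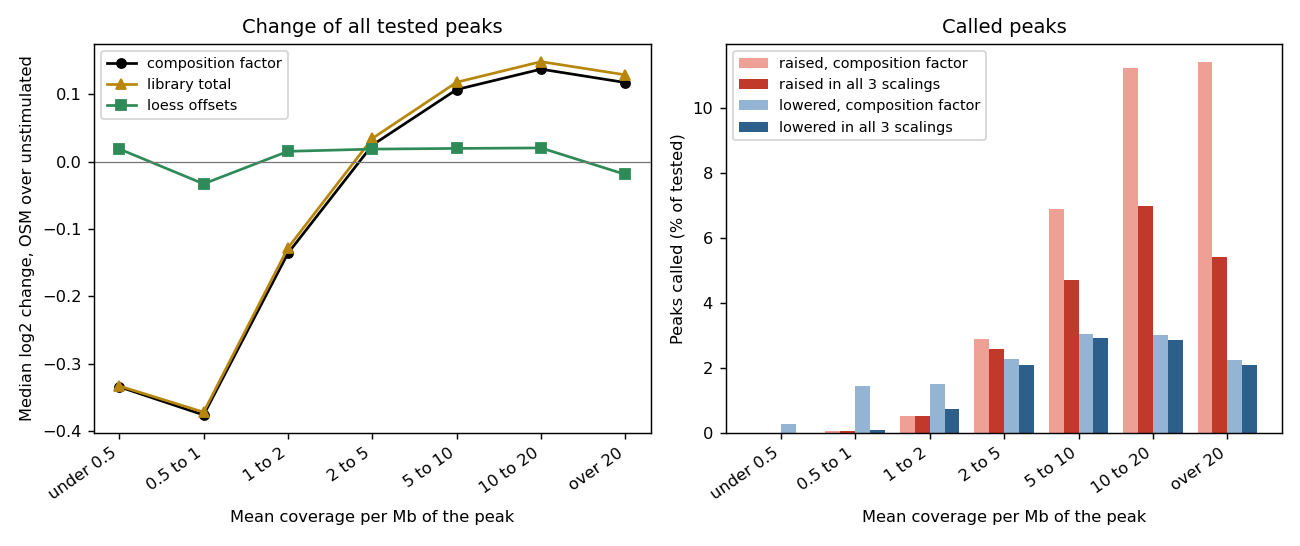
Left, median log2 change of all tested peaks by the mean coverage of the peak, under the 3 scalings; right, percent of tested peaks called higher or lower by the same bins. The median runs from -0.38 in peaks of 0.5 to 1 coverage per Mb to 0.14 in peaks of 10 to 20 with the composition factor and stays within 0.04 of 0 with loess offsets, and bars for calls under all 3 scalings are no taller than those for the composition factor alone.

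Changes and calls differed with peak strength. The median change of all tested peaks was -0.22 with the composition factor, -0.21 with library totals and 0.01 with loess offsets. In peaks with 10 to 20 coverage per Mb, 11.2% were called higher with the composition factor and 6.97% under all 3 scalings, whereas 3.00% and 2.84% were called lower. The OSM libraries were deeper than the unstimulated ones (427 to 667 Mb of coverage in peaks against 329 to 524 Mb), yet 9.64% to 17.0% of their peaks had no coverage, against 3.53% to 10.9%. The part of depth or signal quality in these shifts was not tested.

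The direction split depended on the setting. Higher calls were 54.6% of all calls with the composition factor, 55.8% with library totals and 57.8% with loess. With offsets against the GC content of the peak they were 88.9% (15145 higher, 1884 lower), and 79.7% with the composition factor taken over all tested peaks. Of the raised peaks 97.0% were also called higher with GC offsets, while of the lowered peaks 50.1% were also called lower and 0 of either set changed direction. Without OSM replicate 1, 2 or 3, the composition factor gave 7071, 6910 or 7379 calls in place of 11587.

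Each library also gave 1 value of its composition. Promoter-class peaks took 21.9%, 22.0%, 21.6% and 21.5% of coverage in the OSM libraries and 20.4%, 20.4%, 20.5% and 20.0% in the unstimulated libraries, with no overlap (exact permutation test, two-sided, p = 0.0286, the smallest that 4 against 4 can give; adjusted p = 0.0343 over 6 measures). The share in distal peaks was 25.7% ± 0.15 with OSM and 26.7% ± 0.22 without, and the share in the strongest 1% of peaks was 15.6% ± 0.37 against 14.3% ± 0.37 (SD, n = 4; both exact permutation adjusted p = 0.0343). Over peaks of at least 1 coverage per Mb none of these differences passed (adjusted p = 0.0857 for the promoter share).

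Several motif strings were more frequent in raised than in lowered peaks. Each string was searched on both strands of the whole peak, and shares are descriptions with no test. The strict STAT3 string TTCCNGGAA stood in 5.72% of raised peaks, 1.38% of lowered peaks and 2.29% of all tested peaks. The looser string TTCNNNGAA, which includes every strict match, stood in 24.6%, 14.7% and 17.2%.

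RUNX and AP-1 strings were also more frequent in raised peaks. The RUNX string TGTGGTT stood in 24.8% of raised, 10.2% of lowered and 10.9% of all tested peaks, and in 28.2% of the raised peaks that changed by 1 or more on the log2 scale. The AP-1 string TGANTCA stood in 47.0% of raised, 26.7% of lowered and 25.7% of all tested peaks. Among peaks with a GC content under 45% and, for the comparison set, at least 2 coverage per Mb, the AP-1 shares were 51.6% of raised, 31.0% of lowered and 45.4% of the comparison set, so the AP-1 gap to comparable peaks was smaller. The RUNX shares in the same sets were 29.0%, 10.5% and 15.3%, and those of the strict STAT3 string 5.57%, 1.26% and 2.24%.

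In lowered peaks the E-box CAGCTG stood out. It was present in 48.7% of lowered, 23.8% of raised and 28.4% of all tested peaks, and in 46.7% of peaks called lower with GC offsets. Strings for ISRE (interferon response), SRF CArG boxes, CTCF and C/EBP differed by less: the C/EBP string TTGCNNAA stood in 29.6% of raised and 31.2% of lowered peaks, against 25.8% of all tested. The NF-kB string stood in 20.8% and 21.7%, below the 24.7% of all tested peaks, and the TEAD string GGAATG in 35.8% and 32.1%, against 28.8%.

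**Figure D4:**
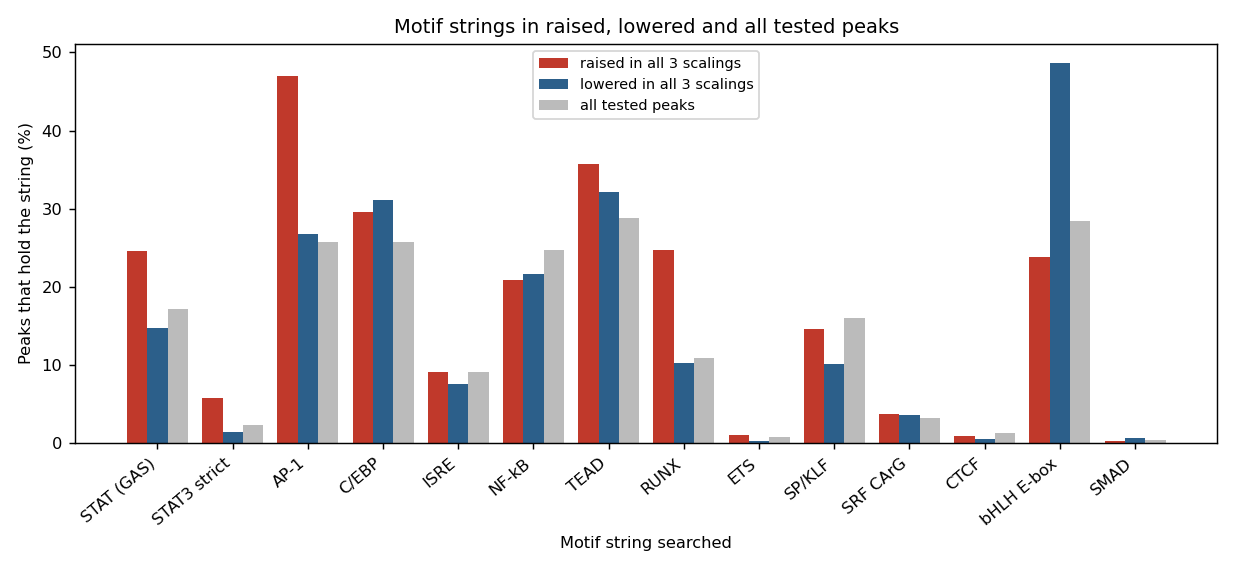
Percent of raised, lowered and all tested peaks that hold each of 14 motif strings on either strand. The AP-1 bar of raised peaks (47.0%) and the E-box bar of lowered peaks (48.7%) are the highest, and the RUNX and both STAT bars are higher in raised than in lowered peaks.

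Strict STAT3 strings also lay toward the peak centre somewhat more often in raised peaks: 32.0% of 275 such strings were within 50 bases of the centre, against 26.5% of 2306 in all peaks of at least 2 coverage per Mb. For RUNX strings these shares were 38.0% of 1263 and 29.7% of 12073, and for AP-1 strings 50.4% of 2744 and 55.8% of 40387.

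The RUNX1 gene, which encodes a RUNX factor of blood and mesenchyme, held 18 raised and 6 lowered peaks of 329 tested inside its span. Most of the raised ones carried the name of a long noncoding RNA, LINC01426, with 10 of 73 peaks raised. The strongest of these peaks lay in a RUNX1 intron. Inside RUNX2 there were 3 raised and 2 lowered of 101, and inside RUNX3 0 of 18. Of all tested peaks, 1.09% were raised and 0.728% lowered. RUNX1, RUNX2 and RUNX3 were counted after the motif shares were seen.

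Other gene names rich in raised peaks were LOC101929935 (11 of 233), ADAMTSL4-AS1 (9 of 21) and C15orf53 (9 of 62, 1 lowered). The strongest LOC101929935 peak lay in an intron of PLPP3, a phosphatase that hydrolyses lysophosphatidic acid, and 8 of the 62 peaks tested inside PLPP3 were raised and 0 lowered. The strongest C15orf53 peak (chr15:38865410-38865910) went from 1.80 ± 0.83 to 9.77 ± 0.80 coverage per Mb (SD, n = 4; log2 change 2.23, limma adjusted p = 1.04e-08). Of 23383 gene names with a tested peak, 3283 had at least 1 raised peak, 2143 at least 1 lowered peak and 639 both.

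Among gp130 ligands and receptors, the receptor subunit shared by the family was the one whose promoter was raised. Of 15 promoter peaks (the tested peak nearest to a start within 1 kb), 2 were called higher with the composition factor and 1 under all 3 scalings. These shares were 2.21% and 0.993% in all promoter-class peaks, and 4.97% and 2.01% in those with at least 5 coverage per Mb. The list promoters were stronger than most, with an unstimulated median of 10.4 against 2.91 for all promoter-class peaks. The IL6ST promoter held 22.4, 19.2, 31.3 and 27.2 coverage per Mb unstimulated and 36.4, 35.8, 40.1 and 36.3 with OSM, with no overlap (log2 change 0.58, SE 0.11, adjusted p = 8.05e-05; 0.45 with loess offsets, adjusted p = 0.00416). LIFR was called with the composition factor (0.72, SE 0.22, adjusted p = 0.0486) and not with loess offsets (adjusted p = 0.123), and its groups overlapped. OSMR was at 32.3 ± 5.1 with OSM and 26.8 ± 4.3 without (limma adjusted p = 0.196).

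IL6R, the IL-6 binding subunit, had a promoter at 30.2 ± 2.3 with OSM and 25.6 ± 3.9 without (limma adjusted p = 0.239), but an intronic peak 26.4 kb from its start was raised from 19.8 ± 4.6 to 31.2 ± 2.6 coverage per Mb (SD, n = 4; limma adjusted p = 7.15e-05). The ligand promoters did not pass: LIF was at 8.30 ± 0.96 with OSM and 6.83 ± 0.80 without, IL6 at 12.5 ± 1.6 and 10.4 ± 0.84, IL11 at 16.6 ± 2.1 and 18.8 ± 2.2, and OSM itself at 0.524 ± 0.23 and 0.429 ± 0.14 (SD, n = 4). Of all 261 peaks with names of this list, 2 were raised (0.766%, against 1.09% of all tested peaks) and 4 lowered (1.53%, against 0.728%). The lowered peaks carried the names LIF (2), IL11 and OSMR. The strongest LIF peak, 2.13 kb from the start, went from 3.26 ± 0.77 to 1.21 ± 0.066 coverage per Mb, the IL11 peak from 2.21 ± 0.76 to 0.729 ± 0.70 and the OSMR peak, in an intron, from 3.65 ± 1.2 to 1.40 ± 0.56 (SD, n = 4; limma adjusted p = 0.0230, 0.0062 and 0.0115).

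Of all promoter-class peaks, 2.21% were called higher with the composition factor and 0.993% under all 3 scalings. For the JAK and STAT genes, 1 of 12 promoters was called with the composition factor and 0 under all 3 scalings. That promoter was JAK1, the kinase bound to gp130 and OSMR, at 15.9 ± 4.3 with OSM and 10.1 ± 0.34 without (SD, n = 4; limma adjusted p = 0.0227, and 0.113 with loess offsets). The STAT3 promoter was among the most open, at 66.3 ± 2.7 and 59.4 ± 3.8 (limma adjusted p = 0.284). A STAT3 intronic peak 33.4 kb from the start was raised: it held 2.72, 2.78, 3.31 and 2.33 coverage per Mb unstimulated and 9.99, 10.3, 10.1 and 9.91 with OSM (log2 change 1.69, SE 0.29, adjusted p = 4.74e-06). No promoter of JAK2, JAK3, TYK2, STAT2, STAT4, STAT5A, STAT5B or STAT6 passed either, with limma adjusted p from 0.0622 (STAT4, at 1.07 with OSM and 2.70 without) to 0.962 (JAK3).

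Feedback genes had the largest share of raised peaks of the 15 gene lists: 29 of 495 peaks (5.86%) were raised and 1 lowered (0.202%), spread over 9 of the 16 genes, and 15 of the 29 belonged to SOCS3. Of all tested peaks, 1.09% were raised and 0.728% lowered. Promoters of SOCS3, SOCS1 and SOCS7 were raised. SOCS1, like SOCS3 an inhibitor of JAK kinases, went from 13.8, 15.2, 14.3 and 10.2 coverage per Mb to 20.8, 25.7, 26.7 and 16.6 (log2 change 0.72, SE 0.14, adjusted p = 0.000171, and 0.0813 with GC offsets). SOCS7 went from 14.2 ± 1.3 to 22.9 ± 5.1 (SD, n = 4; limma adjusted p = 0.000716). SOCS2 was at 1.23 ± 0.45 without OSM and 1.42 ± 0.56 with it, and the CISH peak nearest to the start at 8.56 ± 0.76 and 9.96 ± 0.62, and neither passed, nor did SOCS4, SOCS5 or SOCS6 (limma adjusted p from 0.109 to 0.873 for these 5). A second promoter-class peak of CISH, 0.35 kb from the start, was raised: it held 31.4, 34.4, 37.8 and 38.0 coverage per Mb unstimulated and 47.3, 49.7, 50.3 and 48.2 with OSM (log2 change 0.46, SE 0.10, limma adjusted p = 0.000824). PTPN2, a phosphatase that acts on JAK and STAT proteins, had 3 of 34 peaks raised, the strongest from 1.22, 2.74, 1.71 and 2.30 to 9.62, 9.31, 8.01 and 8.04 coverage per Mb (log2 change 1.93, SE 0.31).

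**Figure D5:**
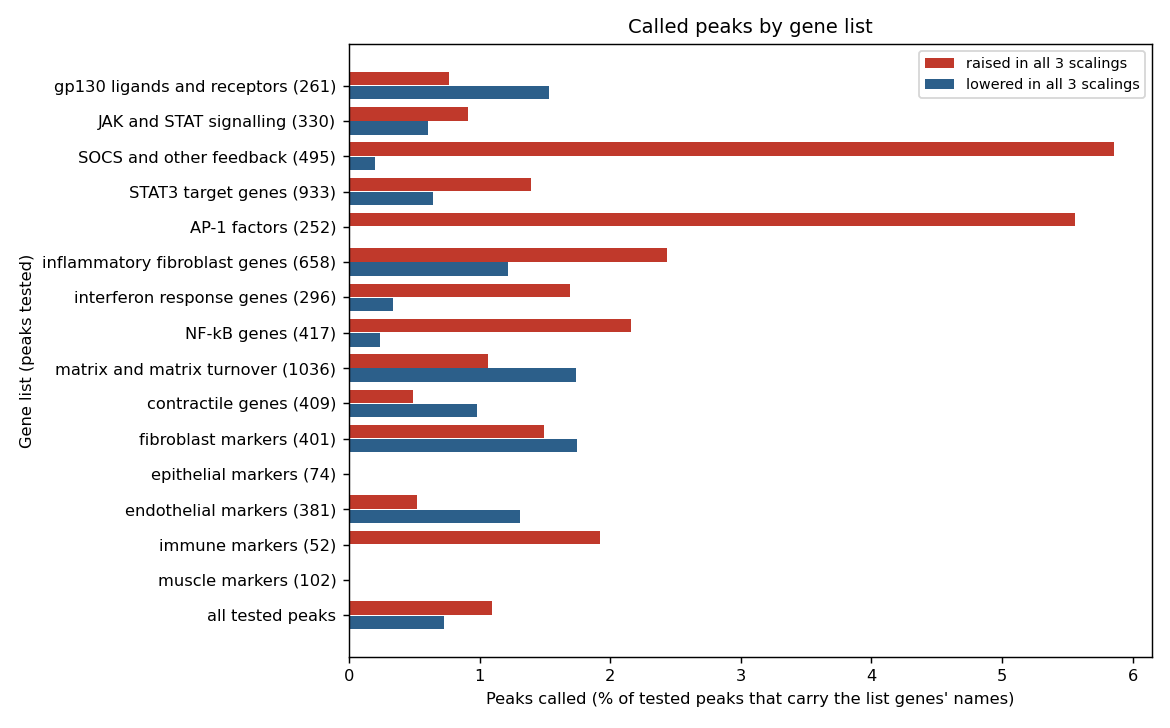
Percent of tested peaks carrying the names of each list's genes that were raised (red) or lowered (blue) under all 3 scalings, with the number of peaks tested beside each list and all tested peaks at the bottom. Feedback genes (5.86% raised) and AP-1 factors (5.56% raised) have the longest red bars, and matrix genes (1.74%) and fibroblast markers (1.75%) the longest blue bars.

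Of 25 genes known as STAT3 targets, 23 had a promoter peak, of which 7 were called higher with the composition factor and 3 under all 3 scalings. Those 3 were CEBPD, KLF4 and ZFP36. The shares called were 2.21% and 0.993% of all promoter-class peaks, and 4.97% and 2.01% of those with at least 5 coverage per Mb. CEBPD, a C/EBP factor of the acute phase response, went from 10.8, 9.42, 7.57 and 8.98 coverage per Mb to 20.4, 21.8, 20.0 and 15.6 (log2 change 1.04, SE 0.16, adjusted p = 7.89e-07). KLF4, a zinc finger factor, went from 7.58, 7.20, 7.39 and 7.08 to 13.8, 14.0, 15.1 and 11.9 (log2 change 0.86, SE 0.18). ZFP36, which degrades cytokine mRNAs, went from 19.2 ± 2.0 to 28.8 ± 1.8 (SD, n = 4; limma adjusted p = 0.00214).

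BCL3, PIM1, CEBPB and HIF1A promoters were called with the composition factor and not with loess offsets. Away from promoters, a peak 17.6 kb from VEGFA, the endothelial growth factor, went from 0.774, 0.142, 0.632 and 1.63 to 5.76, 4.67, 5.31 and 5.12 coverage per Mb (log2 change 2.27, SE 0.33, adjusted p = 7.61e-08). KLF4 also carried the name of a peak 406.1 kb away that was lowered, from 12.9 ± 1.5 to 4.16 ± 1.4 (SD, n = 4; limma adjusted p = 2.21e-12). Over the whole list 13 of 933 peaks (1.39%) were raised and 6 lowered, near the background of 1.09% and 0.728%.

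AP-1 genes had 14 of 252 peaks raised (5.56%) and 0 lowered, against 1.09% and 0.728% of all tested peaks. FOS had 6 of 41, FOSB 4 of 19, and FOSL2, JUN, JUND and MAFF 1 each. The strongest FOS peak, 5.27 kb from its start, went from 9.00, 10.0, 10.8 and 12.1 to 20.4, 22.9, 21.4 and 18.8 coverage per Mb (log2 change 0.97, SE 0.19), and the strongest JUN peak went from 4.02 ± 0.71 to 9.67 ± 1.4 (SD, n = 4). At promoters, FOSL2 and JUND were called with the composition factor (log2 change 0.30 and 0.50) and not with loess offsets.

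The promoter peaks nearest to the starts of 25 inflammatory fibroblast genes, 18 interferon response genes and 11 NF-kB genes were neither raised nor lowered, with median log2 changes of 0.09, 0.01 and 0.15 against -0.01 for all promoter-class peaks. Of all peaks with these genes' names, 16 of 658 (2.43%), 5 of 296 (1.69%) and 9 of 417 (2.16%) were raised, against 1.09% of all tested peaks, and 8 (1.22%), 1 (0.338%) and 1 (0.240%) were lowered, against 0.728%. The strongest were a peak 13.4 kb from NFKBIZ, a nuclear IκB protein (2.39 ± 0.32 to 9.09 ± 2.2), one 21.5 kb from CXCL8, the neutrophil chemokine (0.368 ± 0.26 to 2.34 ± 0.43), and one 59.2 kb from PTGS2, cyclooxygenase 2 (3.07 ± 0.96 to 8.70 ± 1.8 coverage per Mb; SD, n = 4). Of the 59 NFKBIZ peaks, 6 were raised.

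Matrix genes had more lowered than raised peaks: 18 of 1036 (1.74%) were lowered, against 0.728% of all tested peaks, and 11 (1.06%) raised, against 1.09%. COL1A1 and COL3A1, the fibrillar collagens of fibroblasts, each had 2 lowered and 0 raised peaks. The strongest COL1A1 peak, in an intron, went from 9.46, 8.72, 8.68 and 9.64 coverage per Mb to 4.73, 4.94, 3.26 and 5.10 (log2 change -0.96, SE 0.21, adjusted p = 0.0013). POSTN (periostin) had 1 of 23 lowered, from 6.65 ± 1.5 to 2.59 ± 1.2, and TIMP3, a metalloproteinase inhibitor, 4 of 159 (SD, n = 4).

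The promoter of TNC, which encodes tenascin C, was the one lowered promoter of all lists when the peak nearest to each start was taken, from 15.7, 15.8, 11.3 and 10.6 to 10.5, 6.49, 8.59 and 9.47 coverage per Mb (log2 change -0.58, SE 0.16, adjusted p = 0.0252). The groups nearly touched, and the call was lost with GC offsets (adjusted p = 0.404) and without OSM replicate 2 (adjusted p = 0.197). Away from the nearest peak, a second promoter-class peak was lowered at COL7A1 (anchoring fibril collagen), from 30.2 ± 2.3 to 22.2 ± 1.3 coverage per Mb (SD, n = 4; limma adjusted p = 0.00511). In the other direction, a peak 39.0 kb from COL5A1 went from 23.8, 29.2, 28.8 and 17.8 to 57.2, 54.1, 50.1 and 49.7 coverage per Mb (log2 change 1.09, SE 0.11, adjusted p = 7.61e-16). Contractile genes had 2 raised (0.489%) and 4 lowered (0.978%) of 409 peaks, near the 1.09% and 0.728% of all tested peaks, and no promoter called.

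Fibroblast marker promoters were open in both groups, at a median of 10.6 coverage per Mb with OSM and 8.90 without. Muscle marker promoters were open too, at medians of 5.50 and 5.90, and contractile gene promoters at 19.0 and 21.6. Promoter peaks of 10 fibroblast markers summed to 143 to 151 coverage per Mb in OSM and 124 to 140 in unstimulated libraries, and none of the 10 was called. Promoter peaks of the other marker lists are fewer, so the sums cannot be compared between lists. There 3 of 7 epithelial markers had a tested promoter peak, with sums of 2.29 to 4.05 and 2.38 to 5.21, and 2 of 7 immune markers, with sums of 3.05 to 5.90 and 4.55 to 6.44. The 5 endothelial markers summed to 1.09 to 3.31 with OSM and 3.70 to 6.74 without, and the 4 muscle markers to 29.2 to 36.5 and 33.4 to 40.6. No promoter of these 4 lists was called.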

How the data were processed

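Nuclei of Ccd18-Co cells were transposed by the Omni-ATAC protocol per the labels and sequenced as paired ends. The authors processed reads with the ENCODE ATAC-seq pipeline, aligned them to hg38 and called peaks with MACS2 per the study's methods and labels. The deposited values are signal, the summed depth of all bases in each fixed-width peak, not scaled, with samples kept apart. The methods describe consensus peaks, an abundance filter and merging for a smaller set of libraries, and do not say whether these steps made the deposited peaks. Because summed coverage is not a count of reads, no count model was used, and counting intervals cannot be given; 75, the most frequent low value, was taken as 1 read.

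Coverage was divided by the library total (329 to 667 Mb over these 8 libraries) and by a composition factor, the mean log ratio to the geometric-mean library after trimming 30% of log ratios and 5% of means at each end. The 209 peaks whose mean coverage per Mb did not exceed -3 on the log2 scale were not tested. Log2(coverage per Mb + 0.5) of all 44 libraries in 11 groups was fitted by group with limma 3.58.1 in R 4.3.3, with a mean-variance trend, and p-values were adjusted by Benjamini-Hochberg over all tested peaks (threshold 0.05). Loess offsets used a span of 0.3. The script was checked on simulated data. Alternatives were median-of-ratios scaling, pseudocounts of 0.1 and 2, no filter or a minimum of 1 coverage per Mb, only these 8 libraries, precision and quality weights, GC offsets, a replicate block, and each library left out. Library composition was compared by exact permutation tests.

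GENCODE v44 and the hg38 sequence gave positions, GC content and motif strings. A few items are not reported here. Named peaks were the 12 raised and 12 lowered with the largest change, at most 1 per gene name, called under all 3 scalings, averaging at least 1 coverage per Mb, and with separated groups; list genes were named by the tested peak within 1 kb of a start, and gene names by their number of raised (8) or lowered (4) peaks. The comparison, lists and rules were chosen with earlier results of these data known.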

Additional observations from a re-analysis of the deposited data

Results flagged for a closer look

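Of 94 groups of 4 libraries looked at, 5 held 1 library far from the other 3 by Dixon's criterion, where about 1 in 20 (4.7) would be by chance. In the KCNU1 peak, unstimulated replicate 1 held 2.80 coverage per Mb against 5.09 to 5.48 in the others. In the LINC01032 peak, unstimulated replicate 4 held 4.96 against 2.87 to 3.09, and in the PPIF peak, unstimulated replicate 2 held 5.57 against 3.29 to 3.67. The IL6ST promoter peak stood at 40.1 in OSM replicate 3 against 35.8 to 36.4. The share of coverage in distal peaks was 27.1% in unstimulated replicate 4 against 26.6% in the other 3. The 4 peaks kept their calls without the library named.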

How the results depend on the processing

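Calls ranged from 9248 with loess offsets to 17029 with GC offsets around 11587, except for 22740 with only the 8 libraries (11110 higher, 11630 lower), 25675 with quality weights (11073 and 14602) and, chosen after seeing the data, 21087 with the composition factor over all tested peaks (16796 higher). GC offsets gave 15145 higher and 1884 lower, and precision weights 8253 lower. With 1 library left out there were 6910 to 9253 calls, 3952 to 5310 higher and 2899 to 4024 lower. The share of calls that were higher (54.6%) was 55.8% with library totals, 57.8% with loess offsets, 53.0% with median-of-ratios scaling, 50.4% and 59.1% with pseudocounts of 0.1 and 2, 61.9% with a minimum of 1 coverage per Mb, 48.9% with only the 8 libraries, 47.5% and 43.1% with precision and quality weights, 88.9% with GC offsets, 79.7% with the factor over all tested peaks and 56.4% to 59.0% with 1 library left out. The cause was not tested. With a replicate block there were 11804 calls (54.7% higher) and no named call changed. Over all tested peaks, deviations of libraries with the same number correlated at 0 to 0.018, and those with different numbers at -0.013 to 0.003. These peaks are mostly weak (median 0.673 coverage per Mb), so the values cannot show whether the numbers pair the libraries.

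The difference in composition, OSM minus unstimulated, over peaks of at least 1 coverage per Mb was 0.333 percentage points for promoter-class, 0.0148 for exonic, -0.166 for intronic and -0.181 for distal peaks and 0.120 for the top 1%. With 1 library left out it was 1.32 to 1.53, 0.235 to 0.274, -0.711 to -0.609, -1.08 to -0.923 and 1.11 to 1.45, and no test of 3 against 4 can pass the threshold there. Of 357 refits of 17 called promoter peaks, 69 lost the call (11 promoters) and none changed direction. Depth is known as summed coverage only.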

Other observations

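Peaks rich in G and C moved apart from the rest. Of 20442 tested peaks with a GC content over 65%, 1.55% were raised and 0.166% lowered, whereas of 52905 peaks with 55 to 65%, 0.442% were raised and 0.595% lowered. Of peaks with 35 to 45% GC, 1.34% were raised and 0.849% lowered. The ETS string CCGGAAGT, found mostly at promoters, stood in 0.99% of raised and 0.27% of lowered peaks, against 0.78% of all tested peaks. The SMAD string GTCTAGAC, a site of TGF-β signalling, stood in 0.67% of lowered and 0.25% of raised peaks, which are 20 and 11 peaks.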
